A study of Mus musculus with 4 samples.

Results

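The 10 genes described here are Hoxa3, Hoxa5, Hoxa7, Hoxa9 and Hoxa10 of the mouse HoxA cluster and Hoxb2, Hoxb3, Hoxb4, Hoxb5 and Hoxb6 of the HoxB cluster, out of 18193 genes measured on the array. They were chosen by name, and every probe set whose annotation gave exactly 1 gene symbol equal to a listed name was taken. This gave 18 probe sets, with a single probe set for 4 genes and several for 6. A gene's value came from its brightest probe set over the 4 arrays, and the other probe sets are reported beside it. The data were log2 expression values from 4 Affymetrix arrays, 2 per group, each hybridised with RNA from haematopoietic stem cells (HSC) pooled from 3 mice. The cells were sorted as KLS CD48- CD150+ and taken 2 weeks after tamoxifen had started recombination in adult mice. The Rb family deficient group carries the genotype label Rb -/- p130 -/- p107-/-. The wild type group carries the label Rb +/+ p130 +/+ p107-/-, so by label both groups lack p107 and differ in Rb and p130. The sources used here do not name the recombinase driver, the strain or the exact age.

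Hox genes encode homeodomain transcription factors that lie in 4 clusters, HoxA to HoxD, and are numbered within a cluster by paralog group. In blood formation the HoxA and HoxB clusters are the ones mainly used, and their transcription is highest in stem and early progenitor cells and declines as cells mature. Hox proteins bind DNA together with the TALE cofactors of the Pbx, Meis and Pknox families. The MLL (Kmt2a) complex, with menin (Men1), maintains their transcription, and Polycomb complexes, including the methyltransferase Ezh2, repress it.

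The pools were checked before the genes were compared. Array medians lay between 5.94 and 6.02 on the log2 scale, and correlations between pools across genes ran from 0.983 to 0.990. Of the targeted genes, Rbl2 (p130) stood at 7.82 and 8.21 in deficient pools 1 and 2 against 8.94 and 8.75 in wild type pools 1 and 2. Rb1 stood at 9.82 and 9.72 against 9.37 and 9.58, and Rbl1 (p107) at 5.35 and 5.42 against 5.92 and 6.77. That Rbl1 difference of -0.96 was -0.53 on leaving out wild type pool 2, and the 3 other Rbl1 probe sets differed by -0.00087, 0.03 and 0.03 with overlapping groups. Where these probe sets lie relative to the deleted parts is not stated, so they do not check the labels. Of 16 HSC markers 14 were measured, with mean log2 levels between 9.64 and 10.01 in all 4 pools and no separation of the groups. Of the 14, 9 were below 0, where 50.8% of all genes were, with a median difference of -0.17. Both deficient pools were lower for 5, where 18.5% of all genes were, and higher for 1, where 17.0% were. That list holds the member Hoxb5 and the cofactor Meis1, which is among the 5 by its brightest probe set alone. Markers of mature neutrophils, which the sort should leave out, differed with the group: all 11 measured of 14 listed were above 0, where 49.2% of all genes were. Both deficient pools were higher for 7 of the 11, where 17.0% of all genes were, and 0 had a Benjamini-Hochberg adjusted limma p under 0.05. Their mean level was 10.74 and 9.89 in deficient HSC against 8.82 and 9.49 in wild type HSC. The means of the other 8 marker lists overlapped between the groups, with median differences between 0.05 and 0.61, all above 0. In some of these lists the pools of 1 group lay far apart, so overlap does not mean that the pools match. The mean of granulocyte and monocyte progenitor markers was 9.06 and 10.58 in deficient HSC against 8.02 and 10.47 in wild type HSC. That of erythroid markers was 8.18 and 7.65 against 7.02 and 8.29. As a measure of RNA quality, the 3' minus 5' signal of the Actb controls was 3.13 and 2.95 against 2.32 and 2.81, while that of the Gapdh controls was 2.79 and 2.50 against 2.40 and 2.58, where the groups overlapped. Whether other cells or RNA quality played a part in the Hox values was not tested. In bulk RNA, fewer cells of a type and less RNA per cell cannot be told apart.

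The windows 250 bases upstream of the members' RefSeq gene starts were searched for sequence words. These are words that E2F factors, which the Rb family restrains, and Hox complexes are known to bind. Shown are the windows of the 4 HoxA members with values below 0 in deficient HSC, picked for display by that sign alone. The groups overlapped for Hoxa10, so the 4 do not share a clear direction. The sequences are from RefSeq on build GRCm38.p6, which held entries for 6 of the 10 members, 7 windows in all. Hoxb2, Hoxb3, Hoxb5 and Hoxb6 had no entry and were not searched. All 4 genes lie on the minus strand of chromosome 6, and each window is printed 5′ to 3′ on the gene's strand, ending at the base before the start. The windows are chr6:52213068-52213317 for Hoxa3, chr6:52204588-52204837 for Hoxa5, chr6:52227371-52227620 for Hoxa9, and chr6:52234940-52235189 and chr6:52240855-52241104 for windows 1 and 2 of Hoxa10. By these coordinates the Hoxa3 start lies upstream of the Hoxa5 start, so the windows do not follow the order of paralog number. Capitals mark a match to any motif searched.
Hoxa3: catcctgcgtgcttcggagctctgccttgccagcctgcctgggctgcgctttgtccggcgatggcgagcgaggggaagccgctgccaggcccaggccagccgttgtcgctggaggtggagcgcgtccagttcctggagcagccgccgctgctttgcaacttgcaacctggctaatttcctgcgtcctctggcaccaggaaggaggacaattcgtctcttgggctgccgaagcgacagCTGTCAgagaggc
Hoxa5: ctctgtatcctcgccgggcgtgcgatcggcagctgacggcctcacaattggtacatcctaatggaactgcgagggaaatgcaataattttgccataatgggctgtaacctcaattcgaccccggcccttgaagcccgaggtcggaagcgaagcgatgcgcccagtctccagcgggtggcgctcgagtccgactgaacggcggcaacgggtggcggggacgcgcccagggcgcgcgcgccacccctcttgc
Hoxa9: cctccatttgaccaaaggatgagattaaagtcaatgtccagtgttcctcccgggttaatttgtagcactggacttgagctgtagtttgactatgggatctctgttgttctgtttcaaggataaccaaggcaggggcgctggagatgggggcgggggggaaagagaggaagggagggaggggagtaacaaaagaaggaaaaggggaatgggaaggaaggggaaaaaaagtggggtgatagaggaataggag
Hoxa10 window 1: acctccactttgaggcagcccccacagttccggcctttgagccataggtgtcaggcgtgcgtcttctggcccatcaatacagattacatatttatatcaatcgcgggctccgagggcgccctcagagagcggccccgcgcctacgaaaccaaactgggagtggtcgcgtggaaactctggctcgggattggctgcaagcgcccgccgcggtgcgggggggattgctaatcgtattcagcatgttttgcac
Hoxa10 window 2: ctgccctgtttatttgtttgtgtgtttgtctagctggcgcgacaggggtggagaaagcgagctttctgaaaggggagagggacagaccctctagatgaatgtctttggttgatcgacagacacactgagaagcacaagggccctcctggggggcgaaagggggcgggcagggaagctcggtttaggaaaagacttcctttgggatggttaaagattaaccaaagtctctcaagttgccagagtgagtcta

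Motifs of 3 kinds were searched on both strands in all 7 member windows. The E2F words TTTCCCGC, TTTCGCGC, TTTGCCGC and TTTGGCGC were found in 0 of the 7 windows, and 1.86% of the 32851 promoter windows of that length in the table hold any of them. The Hox-Pbx word TGATTNAT was found in 0 windows, against 2.82% of all. The Meis word TGACAG was found in 1 window, that of Hoxa3, where it lies on the other strand, 13 bases before the start; 15.9% of all windows hold it. The windows differed in CpG dinucleotides, with 28 in Hoxa5, 20 and 7 in windows 1 and 2 of Hoxa10, 18 in Hoxa3 and 3 in Hoxa9, beside a median of 6 over all windows. The window of Hoxb4 held 14 and that of Hoxa7 held 7. These are matches of letters within short windows only.

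None of the 10 genes passed the adjusted threshold, a Benjamini-Hochberg adjusted limma p under 0.05, in either direction, where the share of all genes called was 0%. Hoxb6 was the only member at an unadjusted limma p under 0.05, where 6.23% of all genes stood in either direction: 4.04% of all genes were lower and 2.19% higher in deficient HSC, 399 genes higher and 735 lower (297 and 1015 with each array centred on its median). The 10 genes had differences, deficient minus wild type on the log2 scale, from -0.69 in Hoxb6 to 0.37 in Hoxb5. Their median was -0.09, beside a median of -0.00376 over all genes, and 6 of 10 were below 0, where 50.8% of all genes were, and 4 above, where 49.2% were. Differences under 0.1 in size were found in 4 of 10 (Hoxa7, Hoxb2, Hoxb3 and Hoxb4), where 36.2% of all genes had them. Both deficient pools lay below both wild type pools for 4 members (Hoxa3, Hoxa5, Hoxa9 and Hoxb6), a separation seen in 18.5% of all genes, and above them for 0, where 17.0% of all genes were. Groups that did not overlap in either direction made up 35.5% of all genes. The difference exceeded the gap between pools of either group for 2 of the 10 (Hoxa9 and Hoxb6), where 23.3% of all genes did so. The median was -0.18 when deficient pool 2 was left out, -0.15 when wild type pool 1 was, and -0.00455 with the average of each gene's probe sets. With each array centred on its median, 9 of 10 were below 0 and the median was -0.14. With 2 pools against 2, an exact permutation test of a single gene cannot give a p below 0.333, so the tests rest on limma's spread shared over all genes.

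**Figure D1:**
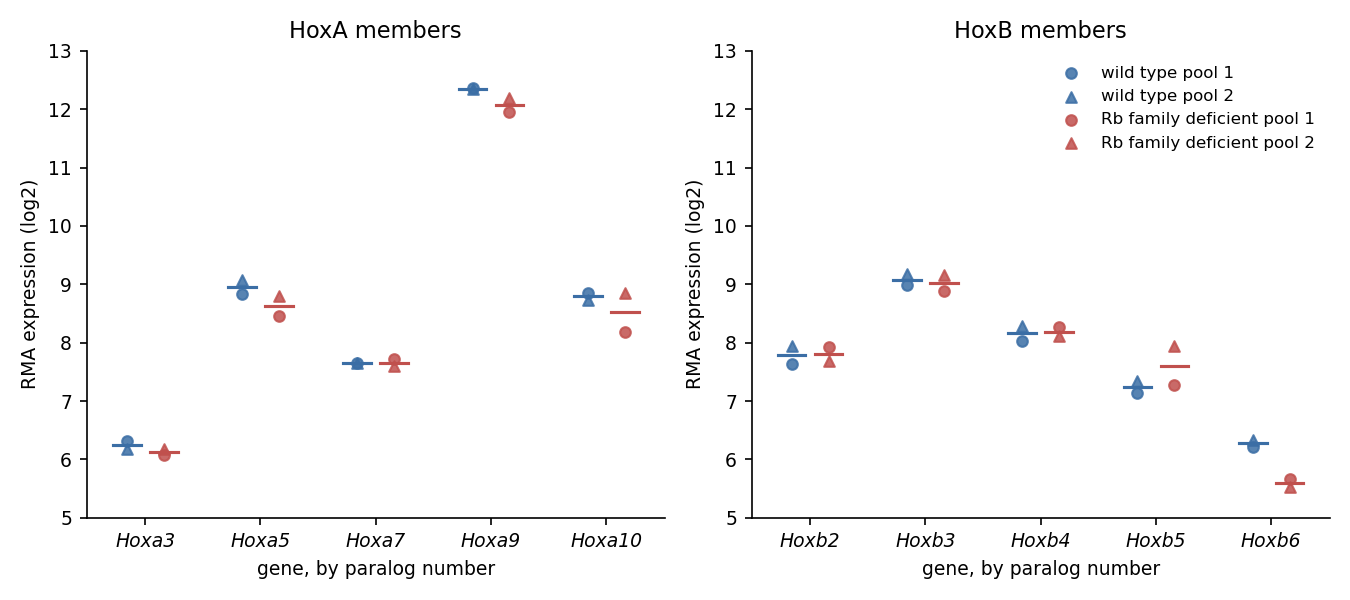
Log2 expression of the 5 HoxA members (left) and 5 HoxB members (right) in each of the 4 pools; points are pools, horizontal bars are means of 2 pools, and genes are ordered by paralog number. The Hoxb6 points of the groups stand well apart, while those of Hoxa7, Hoxb2, Hoxb3 and Hoxb4 overlap; heights are not comparable between genes, since each probe set has its own brightness.

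In the HoxA cluster the levels are given in the order of paralog number. A level is the signal of 1 probe set, and since probe sets differ in brightness, levels are compared between pools only and not between genes. Hoxa3, an anterior member, stood at 6.08 and 6.17 in deficient pools 1 and 2 and at 6.32 and 6.18 in wild type pools 1 and 2. The groups did not overlap, but deficient pool 2 lay next to wild type pool 2, and the difference was -0.12 (SE 0.15). The Hoxa3 difference ran from -0.20 to -0.050 with a pool left out and was -0.0097 with the average of its probe sets. Hoxa5, which is active in haematopoietic progenitors, stood at 8.46 and 8.80 against 8.83 and 9.07. Deficient pool 1 was the lowest, and deficient pool 2 lay next to wild type pool 1. The difference was -0.32 (SE 0.19, n = 2 per group, limma adjusted p = 0.839), or 1.25-fold lower, with a 95% confidence interval of -0.80 to 0.16. Without deficient pool 1 the Hoxa5 difference was -0.14.

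Hoxa7, the next member along the cluster, stood at 7.71 and 7.61 in deficient HSC and at 7.66 in both wild type pools. The wild type values lay between the deficient ones, with a 95% confidence interval of the difference from -0.36 to 0.36. Hoxa9, a factor needed for normal HSC function and a driver of leukaemia when kept on, stood at 11.96 and 12.18 in deficient HSC and at 12.36 and 12.35 in wild type HSC. Both deficient pools were lower, and the wild type pools were almost equal. The difference was -0.28 (SE 0.16, limma adjusted p = 0.825), or 1.22-fold lower, with an interval of -0.68 to 0.11, and it was -0.17 on leaving out deficient pool 1. Hoxa10, which acts beside Hoxa9 in early progenitors, stood at 8.18 and 8.85 against 8.86 and 8.74. Here deficient pool 1 alone was low and deficient pool 2 lay between the wild type pools. The Hoxa10 difference of -0.28 (SE 0.25) became 0.06 when deficient pool 1 was left out and -0.61 when deficient pool 2 was, and the 2 deficient pools were 0.67 apart, more than the group means.

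Over the 5 HoxA members 4 were below 0, where 50.8% of all genes were, with a median of -0.28 and a range from -0.32 to 0.000575. Leaving out deficient pool 1 gave a median of -0.08, leaving out deficient pool 2 gave -0.40, and it was -0.13 with the average of each gene's probe sets. None of the 5 was at an unadjusted limma p under 0.05, where 6.23% of all genes were, and the limma adjusted p ran from 0.825 upwards.

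In the HoxB cluster the anterior members were near 0. Hoxb2 stood at 7.93 and 7.68 in deficient HSC against 7.63 and 7.95 in wild type HSC, a difference of 0.01 (SE 0.19). Hoxb3 stood at 8.89 and 9.16 against 8.98 and 9.18, which differ by -0.05 (SE 0.17). Hoxb4, known for expanding HSC when overexpressed, stood at 8.26 and 8.12 against 8.03 and 8.29, which differ by 0.03 (SE 0.17). In each of these 3 genes the groups overlapped and the pools of a group were further apart than the group means. The 95% confidence intervals were -0.46 to 0.49 for Hoxb2, -0.49 to 0.38 for Hoxb3 and -0.39 to 0.45 for Hoxb4, so shifts of up to about these sizes cannot be told from 0.

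Hoxb5, a gene whose expression marks long-term HSC, stood at 7.27 and 7.94 in deficient HSC and at 7.14 and 7.34 in wild type HSC. Deficient pool 2 alone was high, and deficient pool 1 lay between the wild type pools. The difference of 0.37 (SE 0.25, limma adjusted p = 0.852), 1.29-fold, became 0.70 when deficient pool 1 was left out and 0.03 when deficient pool 2 was.

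Hoxb6, the member with the highest paralog number in this cluster, stood at 5.66 and 5.52 in deficient HSC and at 6.21 and 6.34 in wild type HSC. Both deficient pools were low, and the pools of each group were 0.13 apart. The difference was -0.69 (SE 0.15, n = 2 per group), or 1.61-fold lower, with a 95% confidence interval of -1.07 to -0.31. The unadjusted limma p was 0.00529, rank 115 of the 18193 genes, and the adjusted p was 0.761. With a pool left out the difference ran from -0.75 to -0.62, and with the other array scalings it reached -0.74. The gene has a single probe set on the array, so no other probe set checks it, and with a mean under 6 on the log2 scale it drops out of a filter on dim genes. The HoxB members as a group had 3 above 0 and 2 below, with a median of 0.01 that was -0.04 with median centring and ran from -0.14 to 0.16 with a pool left out.

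**Figure D2:**
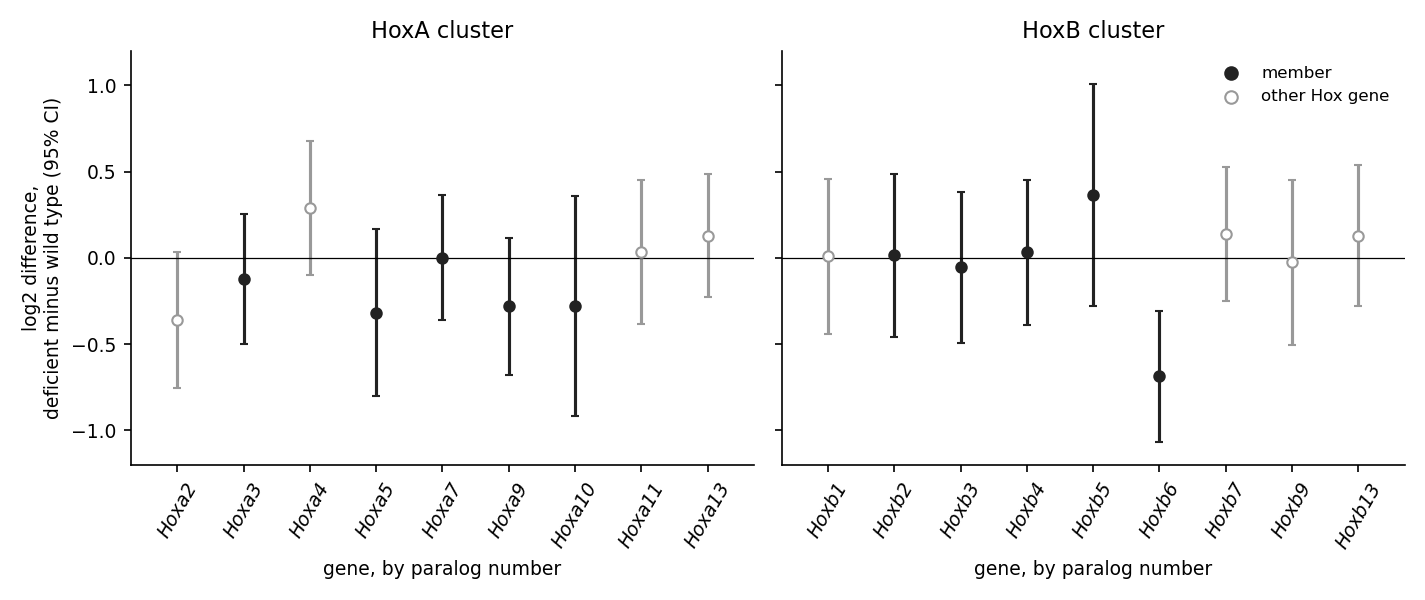
Log2 difference, deficient minus wild type, for each measured gene of the HoxA (left) and HoxB (right) clusters by paralog number; points are limma estimates from 2 pools per group and bars are 95% confidence intervals. Among the genes shown only Hoxb6 has an interval clear of 0, from -1.07 to -0.31; filled points are members and open points other Hox genes.

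Along the HoxB cluster the neighbours Hoxb5 and Hoxb6 had differences of opposite sign. The log2 signal of Hoxb5 minus that of Hoxb6 within an array was 1.62 and 2.42 in deficient HSC and 0.93 and 0.99 in wild type HSC, a change of 1.05. This pair, like the pairs that follow, was chosen after its values were seen, and only the change between pools carries meaning. The paralogs Hoxa5 and Hoxb5 also parted: Hoxa5 minus Hoxb5 was 1.18 and 0.87 in deficient HSC against 1.68 and 1.73 in wild type HSC, a change of -0.68. The paralogs Hoxa3 and Hoxb3 stayed closer, with Hoxa3 minus Hoxb3 at -2.81 and -2.99 against -2.66 and -3.00, a change of -0.07. Hoxb5 minus Hoxb5os, a non-coding gene described below, was -2.91 and -2.48 against -2.21 and -2.69, a change of -0.25. The groups did not overlap for the first and second of these pairs and overlapped for the others. Hoxb5 and Hoxb6 had the highest and lowest difference of the 10 members, so their separation follows largely from that choice. In the second pair Hoxb5 alone overlapped between the groups. No share over all gene pairs was taken, so no conclusion is drawn from these separations.

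The spread between pools of 1 group was of the same order as the differences between groups. The median size of the gap over the 10 members was 0.24 in the deficient group and 0.17 in the wild type group, and the median size of the difference between groups was 0.20. A gap is taken between single pools and a difference between means of 2 pools, which vary less. The sizes are therefore not like measures. Gaps were widest in Hoxa10 and Hoxb5, both at 0.67 with deficient pool 2 the higher. In wild type HSC Hoxb2 had the widest gap, at 0.31.

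The 8 other probe sets of the members were read beside the main ones. Their differences ran from -0.22 to 0.18, 4 of 8 had the sign of the main probe set, and 0 were at an unadjusted limma p under 0.05. The second Hoxa9 probe set stood at 8.48 and 7.92 in deficient HSC against 8.15 and 8.54, where the groups overlapped, with a difference of -0.14 (SE 0.25). The second Hoxa5 probe set differed by -0.02 (SE 0.17), and a probe set with the ending x_at can bind other transcripts. The second Hoxa10 probe set was dim, at 4.94 and 4.76 against 4.92 and 4.73, with a difference of 0.03. The 3 others of Hoxa3 differed by -0.22, 0.13 and 0.18, each larger in size than the main one, that of Hoxb3 by 0.08 and that of Hoxb4 by 0.01.

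**Figure D3:**
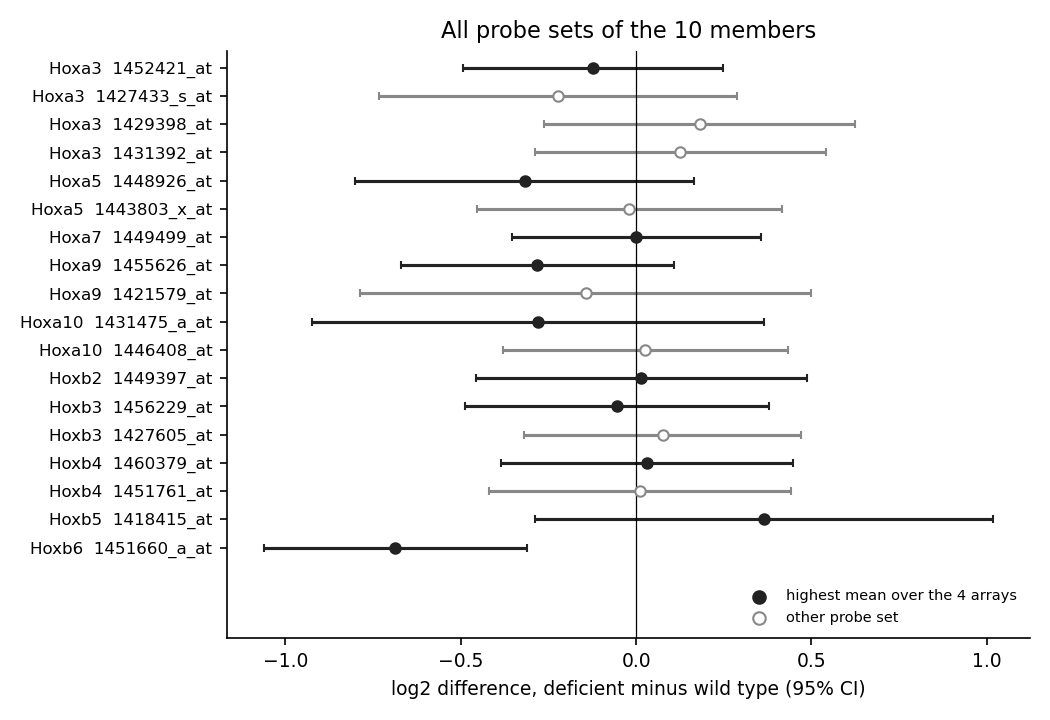
Log2 difference, deficient minus wild type, for all 18 probe sets of the 10 members; points are limma estimates over all probe sets from 2 pools per group, bars are 95% confidence intervals, and filled points are the probe sets used as a gene's value. The open points lie between -0.22 and 0.18, and Hoxb6, with 1 probe set, stands alone to the left.

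The other Hox genes were read in the same way. Of 29 other Hox genes of the 4 clusters 23 were measured, 18 above 0, where 49.2% of all genes were, and 5 below. Their median was 0.11, or 0.06 with median centring or renewed quantile normalization and 0.05 on leaving out wild type pool 1. None was at an unadjusted limma p under 0.05 in either direction, where 6.23% of all genes were. Only 4 of the 23 had a mean of at least 6 on the log2 scale, and the median of these 4 was 0.01. The median of 0.11 thus rests mostly on dim probe sets. The genes with the lowest p were Hoxa2, Hoxa4, Hoxd9 and Hoxc5. Hoxa2, next to Hoxa3, stood at 6.06 and 5.83 in deficient HSC against 6.32 and 6.29, both lower, with a difference of -0.36 (SE 0.16, limma adjusted p = 0.800). Hoxa4, between Hoxa3 and Hoxa5 in paralog number, stood at 4.05 and 3.87 against 3.61 and 3.73, both higher. Its difference was 0.29 (SE 0.15), and its dimmer probe set differed by 0.16. Hoxd9 and Hoxc5 each differed by 0.23 (SE 0.14 and 0.16), and the dimmer Hoxc5 probe sets by 0.03 and -0.05. RMA compresses differences of dim probe sets, and no detection calls were used here.

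Transcripts and genes beside the clusters were also read. Hoxb5os, a long non-coding RNA gene whose RefSeq span contains Hoxb5 and Hoxb6, stood at 10.18 and 10.42 in deficient HSC and at 9.35 and 10.02 in wild type HSC. Both deficient pools were higher, but the wild type pools were 0.67 apart. The difference was 0.61 (SE 0.26, limma adjusted p = 0.799), or 1.53-fold, with an interval of -0.04 to 1.27, and it was 0.28 without wild type pool 1. Of 30 non-coding and flanking genes of both clusters 23 were measured, 9 above 0 and 14 below, where 50.8% of all genes were. Their median was -0.05, which ran from -0.14 to -0.0070 with a pool left out and was -0.14 with genes of a mean of at least 6. Of the 23, 0 were at an unadjusted limma p under 0.05, where 6.23% of all genes were. Beside Hoxb5os the lowest p were those of Copz2 (-0.43, SE 0.20), a coatomer subunit gene, the sorting nexin gene Snx11 (-0.39, SE 0.19) and the T cell adaptor gene Skap1 (0.27, SE 0.15), a neighbour of the HoxB cluster. Leaving out wild type pool 1 gave -0.20 for Copz2 and -0.17 for Snx11.

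Among the TALE cofactors, Pbx3 had the lowest p. This partner of Hoxa9 in DNA binding stood at 11.27 and 10.80 in deficient HSC and at 10.41 and 10.06 in wild type HSC, both higher. The difference was 0.80 (SE 0.23, n = 2 per group, limma adjusted p = 0.761), or 1.74-fold, and the second Pbx3 probe set differed by 0.66 (SE 0.20). Meis1, needed for HSC maintenance, depended on the probe set. The brightest stood at 11.36 and 11.71 against 12.48 and 11.84, which is -0.62 (SE 0.26), while the second stood at 10.68 and 10.51 against 10.10 and 10.11, which is 0.49 (SE 0.14), and the dimmest differed by 0.43 (SE 0.20). In each of the 3 Meis1 probe sets the groups did not overlap, and the signs were opposed, so no direction is given for Meis1.

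Pknox1 differed by 0.38 (SE 0.21) in its brightest probe set and by -0.33 and -0.14 in the others. The Pbx-interacting protein gene Pbxip1 differed by -0.23 (SE 0.22) in the brightest probe set and by -0.81 (SE 0.22) in the other, and the first was 0.04 without deficient pool 2. Of the 10 TALE cofactor genes listed 9 were measured. Over the 9, 3 were above 0 and 6 below, where 50.8% of all genes were, with a median of -0.06 (0.07 with specific probe sets first). Below an unadjusted limma p of 0.05, 1 was higher and 0 lower, where 2.19% and 4.04% of all genes were, and 0 passed the adjusted threshold.

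**Figure D4:**
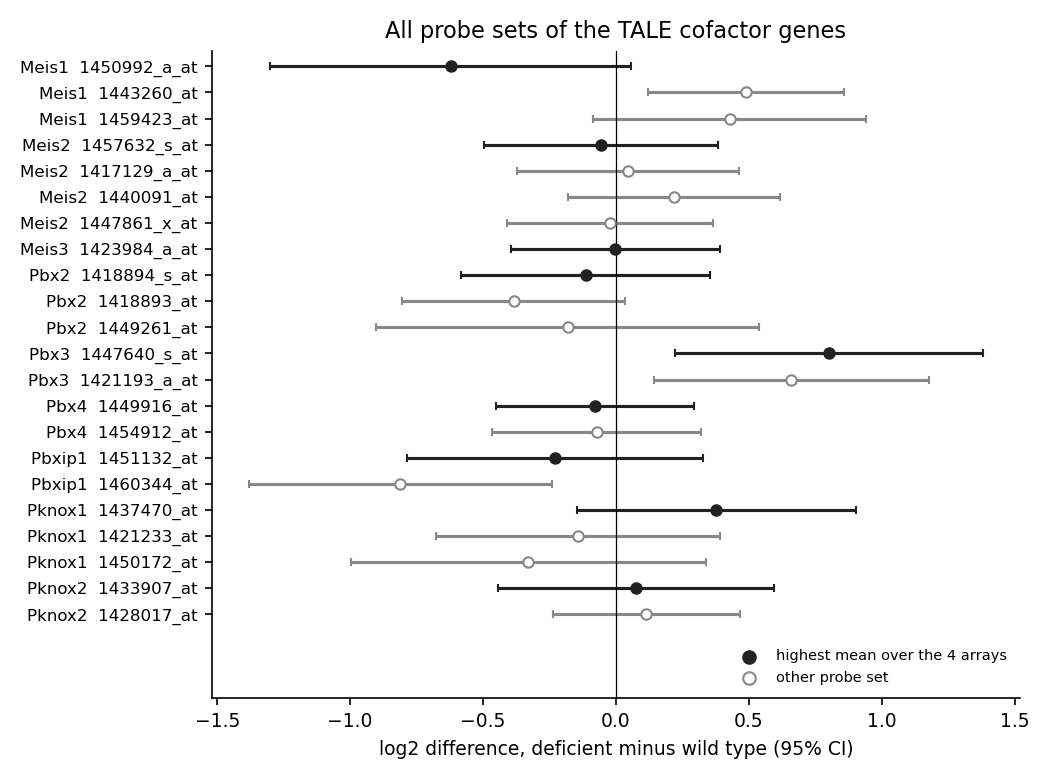
Log2 difference, deficient minus wild type, for all probe sets of the measured TALE cofactor genes; points are limma estimates over all probe sets from 2 pools per group, bars are 95% confidence intervals, and filled points mark the brightest probe set of a gene. Both Pbx3 probe sets lie above 0, at 0.80 and 0.66, and the Meis1 probe sets lie on both sides, at -0.62, 0.49 and 0.43.

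The regulators of Hox transcription showed differences of both signs. Of 24 genes of the MLL complex and other Hox activators, all measured, 13 were above 0, where 49.2% of all genes were, and 11 below. Their median was 0.02, or -0.04 with median centring. Of the 24, 0 were at an unadjusted limma p under 0.05, where 6.23% of all genes were. Men1 stood at 8.38 and 8.34 in deficient HSC and at 8.81 and 8.65 in wild type HSC, both lower, with a difference of -0.37 (SE 0.15, limma adjusted p = 0.794), and its dimmer probe sets differed by -0.07 and -0.13. Kmt2a itself differed by 0.09 (SE 0.16) in its brightest probe set and by -0.44 (SE 0.14) in the other. The subunit gene Hcfc1 differed by -0.48 (SE 0.22), the methyltransferase gene Setd1a by 0.35 (SE 0.17) and Cdx2, a homeobox activator of Hox genes in the embryo, by 0.26 (SE 0.14). The Cdx2 probe set was dim, at 5.80 and 5.72 in deficient HSC against 5.50 in both wild type pools. The other Hcfc1 probe sets differed by -0.29 and 0.05 and that of Setd1a by -0.09. Leaving out wild type pool 1 gave -0.20 for Hcfc1, and leaving out deficient pool 2 gave 0.20 for Setd1a.

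Of 32 Polycomb genes and their modifiers 31 were measured, 10 above 0 and 21 below, where 50.8% of all genes were. Their median of -0.07 turned to 0.07 on leaving out deficient pool 1 and to 0.06 on leaving out wild type pool 1. Below an unadjusted p of 0.05 there were 1 higher and 2 lower of the 31, where 2.19% and 4.04% of all genes were, and 0 passed the adjusted threshold. The groups did not overlap for 9 of the 31, where 35.5% of all genes did not. The 2 lower were Cbx8, a chromodomain subunit of Polycomb complex 1, at 7.34 and 7.40 against 7.90 and 7.74 (-0.45, SE 0.15), and the subunit gene Phc3, at 9.32 and 9.55 against 9.80 and 9.92 (-0.43, SE 0.16). Gmnn, geminin, a replication licensing inhibitor that also binds Hox and Polycomb proteins, was the higher, at 12.09 and 12.07 against 11.60 and 11.72 (0.42, SE 0.14). The groups did not overlap in any of these 3, and the dimmer Cbx8 probe set differed by -0.05 (SE 0.22). Cbx6 differed by -0.70 (SE 0.30), with wild type pool 1 at 10.70 and the other 3 pools between 9.49 and 9.87. The methyltransferase gene Ezh2 differed by 0.03 (SE 0.20), with overlapping groups.

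Genes reported to be linked to Hoxa9 and Meis1 were read last. Of 24 listed 23 were measured, 10 above 0 and 13 below, where 50.8% of all genes were. Their median was -0.08, or 0.01 with renewed quantile normalization. Below an unadjusted p of 0.05 there were 3 higher and 4 lower, against 2.19% and 4.04% of all genes, and 0 passed the adjusted threshold. The lowest p were those of Id2, an inhibitor of helix-loop-helix factors (1.98, SE 0.31), the AP-1 gene Fos (1.10, SE 0.23), the HSC regulator Mecom (-0.69, SE 0.16) and Mycn (-0.79, SE 0.19). In all 4 the groups did not overlap, which is likely for genes picked by a low p. Over the list this held for 13 of the 23, where 35.5% of all genes did not overlap. The other Id2 probe sets differed by 0.72 and -0.07, those of Mecom by -0.04 and -0.23 and those of Mycn by -0.33 and 0.11. These genes respond to many other factors, and the list was written with earlier results of these data known.

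**Figure D5:**
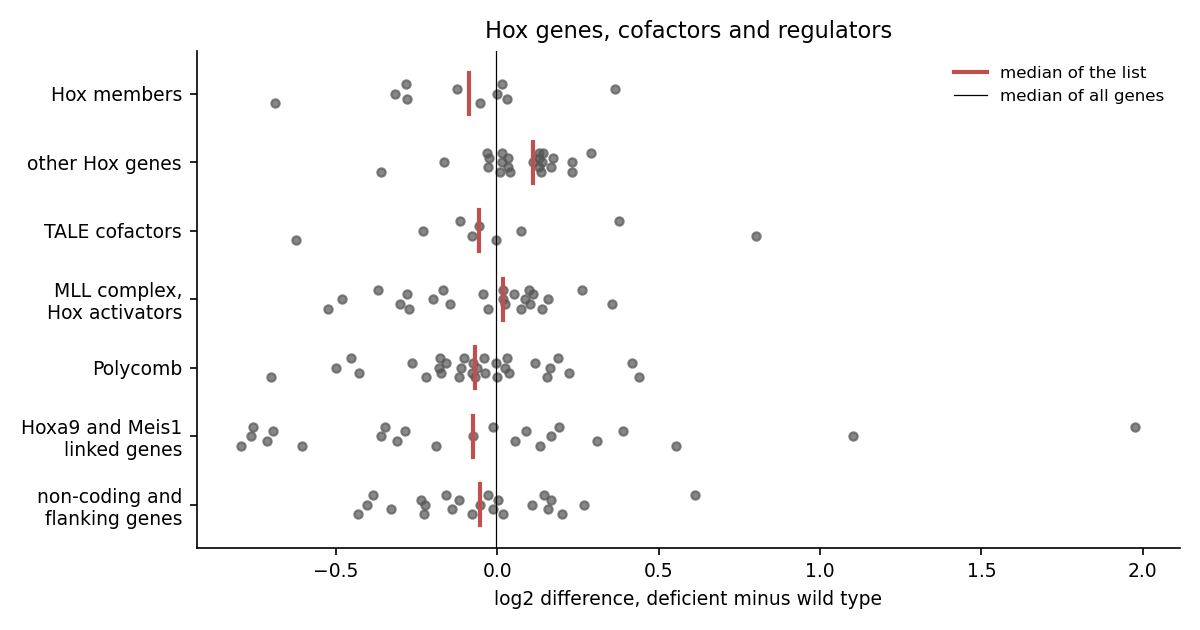
Log2 differences, deficient minus wild type, of the single genes in each list, 1 point per measured gene, with the median of the list as a bar and the median of all genes as a vertical line. The median of the 10 Hox members lies at -0.09 and that of the other Hox genes, most of them dim, at 0.11. The lists' points fall on both sides of the line for every list.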

How the data were processed

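Each array came as log2 expression values for its probe sets, deposited by the authors; the submitters' processing notes name RMA and limma without version. RMA brings the arrays to nearly 1 distribution, which would hide a change in the RNA content of a cell. No scanner data or detection calls entered, and precision is limited by having 4 arrays. Of 45101 probe sets, 64 were array controls, 34945 had 1 gene symbol in the platform annotation, 932 had several and 9160 were unlisted. Symbols were updated through the Entrez ID with a RefSeq table of GRCm38.p6 (34741 found), used otherwise for gene order and promoters only.

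Differences were fitted with limma 3.58.1 (lmFit, eBayes) in R 4.3.3 over 18193 genes with no block, after the code was tested on simulated data. SE values are moderated. Differences of second probe sets come from the same fit over all probe sets. Groups were taken from the titles. Nothing states whether a mouse entered more than 1 pool, so p-values measure the spread between these pools. Same-numbered pools did not deviate together (correlation across genes -0.188). Members and lists were chosen with earlier results of these data known. Named genes are the members, Rb1, Rbl1, Rbl2, Meis1, Pknox1, Kmt2a, Men1, Ezh2, a gene not reported here and up to 4 genes of each of the 6 gene lists with the lowest p; there were 10 marker lists.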

Additional observations from a re-analysis of the deposited data

How the results depend on the processing

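Limma called 0 genes under all alternatives, beside 399 higher and 735 lower below an unadjusted p of 0.05. These were 297 and 1015 with median centring, 244 and 317 without deficient pool 1, 689 higher without wild type pool 2, and 226 higher with genes of a mean of at least 6, where fewer genes were tested. The replicate block gave 281 and 457 with 0 calls, and the median of the members under it was -0.09. The pools share only a number, and the crossed pairing, added after seeing the data, gave 518 and 1151 with 0 calls. The median of the 10 members was -0.00455 with the average of each gene's probe sets and ran from -0.18 to -0.066 with a pool left out, and 5 to 9 members were below 0 over all alternatives. Of 39 named genes 28 kept their sign throughout, among them 5 members (Hoxa3, Hoxa5, Hoxa9, Hoxb5 and Hoxb6), with Hoxb6, Hoxa4, Hoxc5, Cdx2, Skap1 and Rbl1 not tested under the filter on dim genes, which left 33 of the 39. Median centring gave -0.054 for Hoxa7, -0.040 for Hoxb2, -0.024 for Hoxb4 and -0.024 for Ezh2. Renewed quantile normalization gave 0.039 for Hoxb3. That average gave 0.010 for Hoxb3, 0.098 for Meis1, -0.032 for Pknox1 and -0.18 for Kmt2a. Specific probe sets first gave 0.026 for Hoxa10, 0.49 for Meis1 and -0.070 for Id2. With a pool left out, Hoxa7 ran from -0.052 to 0.053, Hoxa10 from -0.61 to 0.056, Hoxb2 from -0.14 to 0.17, Hoxb3 from -0.19 to 0.081, Hoxb4 from -0.096 to 0.16, Pbxip1 from -0.50 to 0.043, Kmt2a from -0.016 to 0.19 and Ezh2 from -0.18 to 0.25. The causes were not tested.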
